A study of Rattus norvegicus with 12 samples.

Results

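The Gadd45 genes were taken as the 4 rows of the deposited table, of 18344, whose gene name was Gadd45a (ENSRNOG00000005615), Gadd45b (ENSRNOG00000019822), Gadd45g (ENSRNOG00000013090) or Gadd45gip1 (ENSRNOG00000003011). They were chosen by their FPKM in CIRBP against NC, where Gadd45b and Gadd45g were among the genes with the largest decreases, so values of that comparison are given for these 4 genes as a description, without a test. The same holds for si-NC against NC, which uses the same NC libraries. All 12 libraries came from rat cells named H9C2, a cardiac myoblast line from embryonic heart. Every group had received OGD/R, deprivation of oxygen and glucose followed by reperfusion, a culture model of ischaemia. The groups of 3 libraries were OGD/R with NC, with CIRBP, with si-NC and with si-CIRBP. In the column headers the names of NC and CIRBP begin with ad and those of the other groups with si, and neither prefix is explained. Apart from these prefixes, the labels used here give no form, dose or time for any of these agents. The labels name biological replicates without saying that these were separate cultures, so p-values measure the spread between these libraries, which may be technical. Cells that had not gone through OGD/R were not analysed here.

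The titles name H9C2, whereas the cell line label reads rat astrocytes. The 11 skeletal and cardiac muscle markers found summed to 5.46 to 10.2 FPKM in NC and CIRBP and to 16.1 to 182 FPKM in the other groups. A mean of at least 1 FPKM was reached by 2 of them in NC, 1 in CIRBP, 6 in si-NC and 8 in si-CIRBP. FPKM are fragments scaled by transcript length and sequencing depth, so levels of different genes can be compared. The cardiac factor Nkx2-5 was listed at 0 in all NC and CIRBP libraries. The 6 astrocyte markers summed to 132 to 283 FPKM over the 12 libraries, most of it S100b, and 3 of them reached a mean of 1 FPKM in NC and CIRBP and 4 in the si groups. In NC and CIRBP the astrocyte genes Aldh1l1, Slc1a2 and Slc1a3 were each under 1 FPKM. Markers of other cell types also differed between the arms. The 5 smooth muscle markers summed to 78.2 to 96.2 FPKM in NC and CIRBP and to 183 to 1438 FPKM in the si groups, and 5 fibroblast markers to 88.9 to 167 and to 152 to 1220 FPKM. In NC and CIRBP most of each sum was 1 gene. For smooth muscle this was Smtn, at 71.1 to 93.1 FPKM against 65.5 to 82.2 FPKM in the si groups. For fibroblasts it was Pdgfra, at 86.0 to 165 against 51.9 to 84.7 FPKM. Acta2 was at 0.400 to 2.18 against 73.8 to 954 FPKM and Col1a1 at 1.02 to 2.36 against 42.4 to 683 FPKM. Within si-NC, library 1 was lowest in all 3 sums, with 16.1 FPKM against 132 and 56.9 for skeletal and cardiac muscle, 183 against 1438 and 1115 for smooth muscle and 152 against 1204 and 731 for fibroblasts. Pdgfra went the other way there, at 81.1 FPKM in library 1 against 51.9 and 64.4 FPKM. Within si-CIRBP, library 1 was lowest too, with 31.8 FPKM against 121 and 182, 753 against 810.0 and 959, and 597 against 968 and 1220 FPKM. The part of these markers in the Gadd45 values was not tested. In bulk RNA, fewer cells of a type and less RNA per cell cannot be told apart. Cirbp, the targeted cold-inducible RNA-binding protein, stood at 26.5, 28.6 and 27.7 FPKM in libraries 1, 2 and 3 labelled si-CIRBP, against 29.0, 24.2 and 27.0 FPKM in si-NC. The mRNA was therefore not lower there, and no direction below rests on a measured loss of Cirbp. In CIRBP it was at 35.8 ± 1.27 FPKM (SD, n = 3) against 19.7 ± 0.557 FPKM in NC.

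Gadd45a, Gadd45b and Gadd45g encode small acidic stress proteins that have no enzyme activity and act by binding partners. They bind the kinase MTK1 (Map3k4) upstream of p38 and JNK, the Cdk1 and cyclin B1 complex of mitosis, and the replication clamp PCNA, and they take part in DNA repair and active DNA demethylation. Gadd45a is a classical target of p53, Gadd45b is known as an NF-kB and TGF-beta response gene, and Gadd45g is induced by cytokines and differentiation signals. Gadd45gip1 is named for binding these proteins but is not their homologue. Its product, also called CRIF1, is a component of the large subunit of the mitochondrial ribosome.

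RefSeq on the rat build GRCr8 places Gadd45a on chromosome 4, Gadd45b on chromosome 7, Gadd45g on chromosome 17 and Gadd45gip1 on chromosome 19. Promoter windows of 300 bases were found for 3 of the 4 genes, Gadd45gip1 being the one without. The 250 bases before the start site are shown, on the minus strand, so that a reader can compare them. Whether they bear on the changes in level was not tested. Capitals mark matches on either strand to the motifs searched. The Gadd45a stretch is chr4:97486800-97487049, that of Gadd45b chr7:9430719-9430968 and that of Gadd45g chr17:13530352-13530601. The outer end of the annotated Gadd45b gene lies 273 bases before the start site used, so the stretch shown for Gadd45b lies within the annotated gene.
Gadd45a: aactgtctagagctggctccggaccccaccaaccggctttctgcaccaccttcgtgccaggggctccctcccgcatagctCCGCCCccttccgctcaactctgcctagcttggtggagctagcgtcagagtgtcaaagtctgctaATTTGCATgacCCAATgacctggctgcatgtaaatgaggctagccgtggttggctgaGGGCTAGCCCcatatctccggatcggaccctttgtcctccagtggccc
Gadd45b: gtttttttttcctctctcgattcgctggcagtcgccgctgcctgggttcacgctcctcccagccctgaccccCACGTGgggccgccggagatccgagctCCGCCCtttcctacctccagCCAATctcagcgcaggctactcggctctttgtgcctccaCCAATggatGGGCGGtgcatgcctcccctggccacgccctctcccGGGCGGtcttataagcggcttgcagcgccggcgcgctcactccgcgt
Gadd45g: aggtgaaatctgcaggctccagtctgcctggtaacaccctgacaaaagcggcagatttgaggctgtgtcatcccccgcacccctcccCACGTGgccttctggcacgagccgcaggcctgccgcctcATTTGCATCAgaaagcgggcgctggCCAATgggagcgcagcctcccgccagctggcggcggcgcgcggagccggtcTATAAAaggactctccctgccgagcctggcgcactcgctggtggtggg
Each promoter held the CCAAT box, which 37.5% of the 33469 promoters in the table held too. Gadd45b had it at 2 places, and also 3 GC boxes (GGGCGG, in 33.1% of promoters). Gadd45b and Gadd45g shared the E-box CACGTG (6.42% of promoters). Gadd45a and Gadd45g shared the octamer ATTTGCAT (1.78%), which in Gadd45g overlaps a match to TGATGNAA (3.98%). TATAAA, present in 14.2% of promoters, was found 48 bases before the start of Gadd45g alone. Gadd45a also held 1 GC box and a match to the p53 consensus decamer (7.98%). No window held the NF-kB consensus (4.18%), TGACGTCA (1.83%), TGANTCA (7.33%), the interferon-stimulated response element ISRE (3.92%), GCGNGGGCG (4.98%) or TTCNNNGAA (8.87%), which says only that these letters are not in these windows. The windows were rich in CpG, with 14, 27 and 24 CpG dinucleotides in Gadd45a, Gadd45b and Gadd45g against a median of 7 over all promoters.

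Gadd45b was the most abundant member in NC and the one with the widest range. It stood at 371, 372 and 394 FPKM in the NC libraries, which ranked it 120th of 14257 genes by group mean. In CIRBP it stood at 16.9, 16.3 and 15.6 FPKM, rank 5607. The groups lay far apart, with a ratio of means of 23.3 (379 ± 13.0 against 16.2 ± 0.627 FPKM) and a difference of -4.46 on the log2(FPKM + 1) scale (SE 0.495), the scale of every log2 value below. In si-NC the libraries gave 311, 204 and 259 FPKM, and those labelled si-CIRBP gave 141, 26.7 and 27.1 FPKM. All 3 of the latter lay below all 3 si-NC libraries, but library 1 stood between si-NC and the other pair. Gadd45b fell in this comparison by a log2 fold change of -2.41 (SE 0.495, limma adjusted p = 0.00471). Without si-CIRBP library 1 the value was -3.19 (adjusted p = 4.99e-07 with limma), given as a description since that library was singled out after its values were seen. The call with all libraries did not hold when limma was given only the 6 si libraries (adjusted p = 0.0671), where the spread comes from the si groups only. From high to low the order was NC, si-NC, si-CIRBP and CIRBP, and no neighbours in it overlapped.

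**Figure D1:**
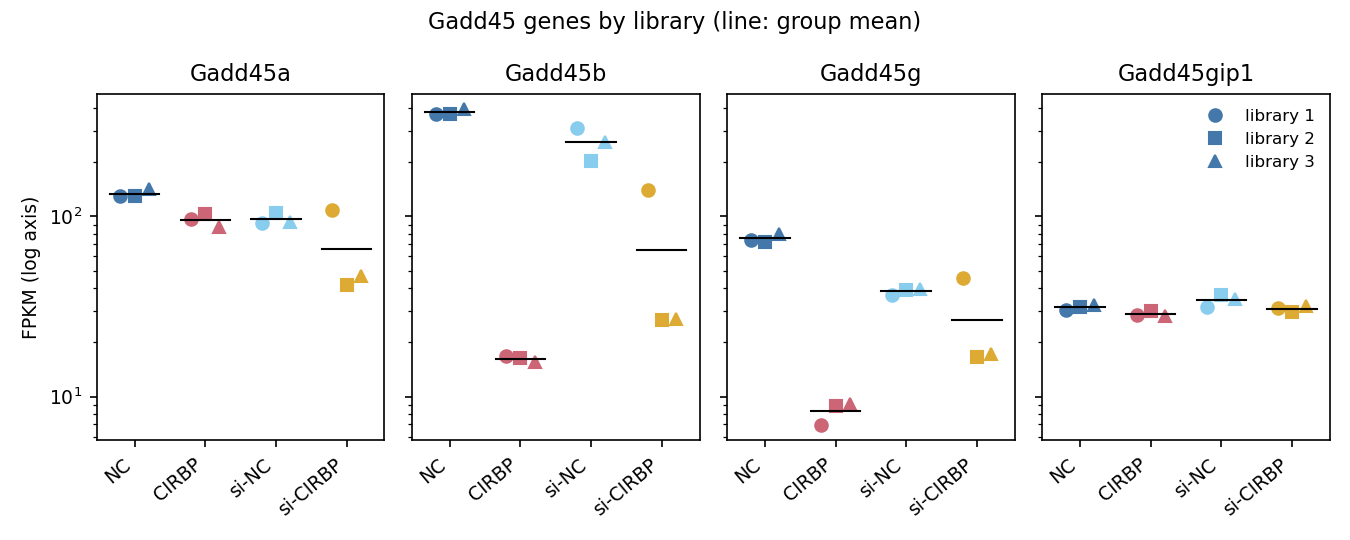
FPKM (log axis) of the 4 Gadd45 genes in each library, with circles, squares and triangles for libraries 1, 2 and 3 and a line at each group mean. Gadd45b spans 15.6 to 394 FPKM, Gadd45gip1 only 28.0 to 36.8 FPKM, and si-CIRBP library 1 lies above libraries 2 and 3 in Gadd45a, Gadd45b and Gadd45g.

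Gadd45g, the least abundant of the 3 homologues, was at 74.1, 72.6 and 80.3 FPKM in NC and at 6.99, 8.90 and 9.06 FPKM in CIRBP. The CIRBP libraries were all far below NC, by 9.10 times in the means (75.7 ± 4.12 against 8.31 ± 1.15 FPKM, log2 difference -3.05, SE 0.295). In si-NC it was at 36.9, 39.0 and 39.7 FPKM, between the levels of NC and CIRBP. Those labelled si-CIRBP gave 45.5, 16.6 and 17.2 FPKM, so that library 1 exceeded every si-NC library and the other pair lay under them. The comparison of these groups did not pass the test (a log2 fold change of -0.68, SE 0.295, limma adjusted p = 0.109). It passed once si-CIRBP library 1 was left out (-1.14, adjusted p = 2.67e-05 with limma). That library was singled out after its high value was seen, and the spread in that fit also came from NC and CIRBP. The pass is therefore given as a description. A fit of only the si libraries without library 1 is not given here.

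Gadd45a had the same pattern in the si groups but a smaller distance between NC and CIRBP. It was at 130.4, 131 and 141 FPKM in NC and at 96.2, 103 and 87.2 FPKM in CIRBP, a ratio of means of 1.41 (134 ± 6.27 against 95.4 ± 7.74 FPKM, log2 difference -0.49, SE 0.272). The values of si-NC, 92.2, 104 and 93.7 FPKM, overlapped those of CIRBP. The libraries labelled si-CIRBP gave 109, 41.8 and 46.9 FPKM, again with library 1 above all of si-NC and the others well below. The difference from si-NC did not pass the test (a log2 fold change of -0.68, SE 0.272, limma adjusted p = 0.0852), and without si-CIRBP library 1 it did (-1.10, adjusted p = 1.57e-05 with limma). For Gadd45a and Gadd45g the call in the si groups therefore hung on 1 library. It was singled out after its values were seen, so the calls without it are a description.

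Gadd45gip1, the mitochondrial ribosome gene, kept within a narrow band. It was at 30.4, 31.4 and 32.4 FPKM in NC, 28.2, 29.7 and 28.0 in CIRBP and 31.5, 36.8 and 34.8 in si-NC. Those labelled si-CIRBP gave 31.2, 29.3 and 31.7 FPKM. The CIRBP values were just below those of NC (log2 difference -0.13, SE 0.0613), a sign that flipped to 0.02 once the libraries were scaled to one median. Between the si groups the values overlapped (a log2 fold change of -0.15, SE 0.0613, limma adjusted p = 0.0817), and si-CIRBP library 1 did not stand apart from libraries 2 and 3. This comparison passed the test without si-NC library 1 (-0.21, adjusted p = 0.0175 with limma). In order of group means si-NC came first, then NC, si-CIRBP and CIRBP, and each neighbouring pair overlapped.

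In CIRBP all 4 Gadd45 genes had their 3 libraries below the 3 of NC, as did 45.0% of all genes tested, from which nothing is read since this comparison had served to choose them. Between the si groups, 1 of the 4, Gadd45b, had all 3 libraries below, against 24.3% of all genes tested, and it was also the 1 gene of the 4 called lower, against 20.5%. Without si-CIRBP library 1, Gadd45a, Gadd45b and Gadd45g were called lower, against 23.6% of all genes. From this nothing is read either, since that library was singled out after its Gadd45 values were seen. Of all genes, 54.0% were called in either direction in CIRBP against NC, 29.6% between the si groups and 35.7% there without that library. Gadd45a, Gadd45b and Gadd45g also had all 3 si-NC libraries below all 3 of NC, as did 34.0% of all genes, with log2 differences of -0.47, -0.57 and -0.96, and Gadd45gip1 overlapped there.

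**Figure D2:**
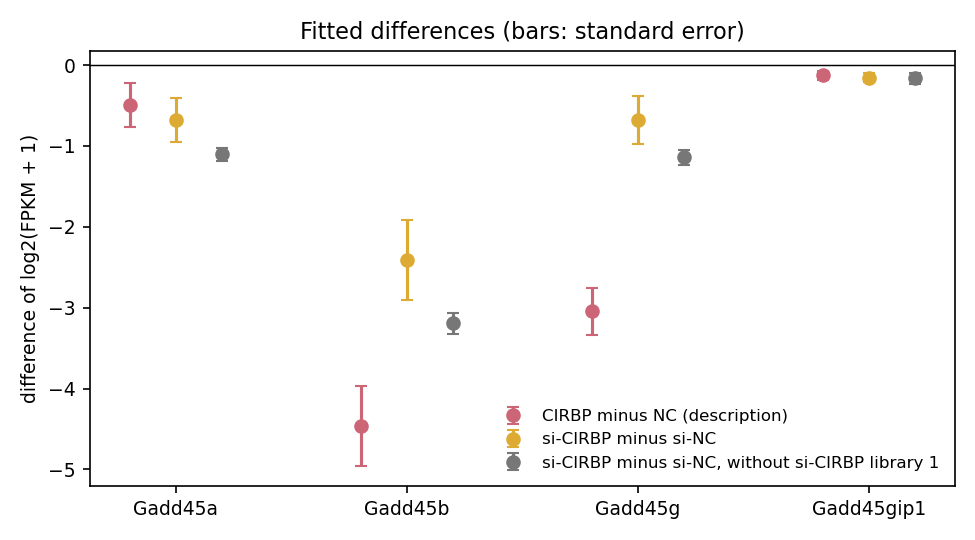
Fitted differences of log2(FPKM + 1) for each Gadd45 gene, with bars of 1 standard error, in CIRBP minus NC and in si-CIRBP minus si-NC with all libraries and without si-CIRBP library 1. Leaving that library out moved Gadd45b from -2.41 to -3.19, Gadd45a from -0.68 to -1.10 and Gadd45g from -0.68 to -1.14, and left Gadd45gip1 near 0.

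The makeup of the family changed along with its total. Gadd45a, Gadd45b and Gadd45g summed to 575, 575 and 616 FPKM in NC and to 120.1, 128 and 112 FPKM in CIRBP. Gadd45b made up 64.4 ± 0.350% of the sum in NC and 13.6 ± 0.731% in CIRBP, while Gadd45a made up 22.8 ± 0.162% and 79.5 ± 1.31%. The leading homologue was thus Gadd45b in NC and Gadd45a in CIRBP. The sums were 439.9, 347 and 392 FPKM in si-NC and, labelled si-CIRBP, 295, 85.1 and 91.2 FPKM. Gadd45b made up 70.7, 58.8 and 66.0% of them in si-NC and 47.7, 31.3 and 29.7% in si-CIRBP. Gadd45b led in si-CIRBP library 1 and Gadd45a in libraries 2 and 3. The ratio of Gadd45a to Gadd45g, in contrast, was 2.51 ± 0.154 in si-NC and 2.54 ± 0.174 in si-CIRBP, library 1 included (2.39), and 1.77 ± 0.0226 in NC and 11.6 ± 2.07 in CIRBP. Gadd45a and Gadd45g stood in a like ratio in all 6 si libraries, whereas in the other arm Gadd45g was much the lower relative to Gadd45a in CIRBP.

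**Figure D3:**
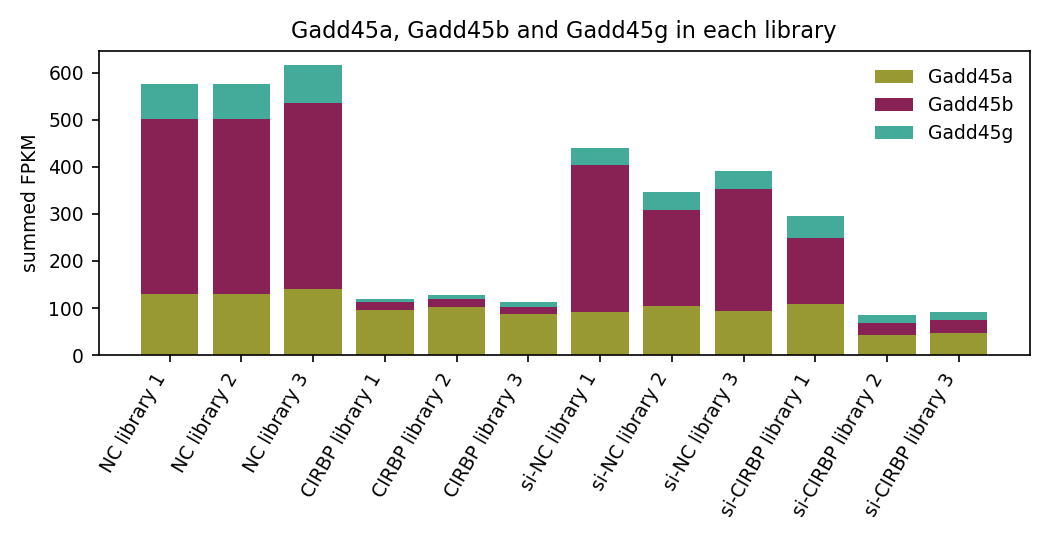
Summed FPKM of Gadd45a, Gadd45b and Gadd45g in each of the 12 libraries, stacked by gene from 0. The Gadd45b segment fills most of each NC and si-NC bar, shrinks to 12.7 to 14.0% in CIRBP, and si-CIRBP library 1 is more than 3 times as high as libraries 2 and 3.

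Both si groups were uneven over all genes. In si-NC, 740 genes in library 1, 561 in library 2 and 199 in library 3 lay at least 1 log2 unit from the mean of the other pair, against 487, 135 and 183 in si-CIRBP and 94 to 111 in each NC and CIRBP library. The libraries labelled si-CIRBP differed for some other stress genes as for the Gadd45 homologues, but not for all of them. This is given as a description of single libraries. On the log2 scale library 1 exceeded the mean of libraries 2 and 3 by 2.34 for Gadd45b, 1.38 for Gadd45g and 1.28 for Gadd45a. Among 14 other stress and growth arrest genes, 6 were higher in library 1 by at least 1, and the median was 0.57, against 313 of 14257 genes tested and a median of -0.02. Ddit4, an inhibitor of mTORC1, was at 209, 28.5 and 28.8 FPKM in libraries 1, 2 and 3. Ddit3, which encodes CHOP and is also called Gadd153, was at 99.5, 21.8 and 23.6 FPKM. The cell cycle inhibitor Cdkn1a (p21), a binding partner of the Gadd45 proteins, was at 247, 95.0 and 99.98 FPKM. Other genes of this list hardly differed or were lower in library 1. Btg1 was at 93.5, 86.8 and 92.3 FPKM and Phlda3 at 195, 212 and 228 FPKM. Of the 8 cell cycle and repair partners, 2 were lower in library 1 by at least 1, as were 174 of 14257 genes tested. Cdkn1a was the 1 partner higher by as much. The lower ones were Ccnb1 (cyclin B1) at 26.0, 71.4 and 70.1 FPKM and the mitotic kinase Aurka at 10.00, 24.9 and 23.5 FPKM. Pcna differed little, at 225, 247 and 233 FPKM. The NF-kB inhibitor Nfkbia was at 190.0, 39.8 and 45.2 FPKM. It was 1 of 3 genes higher by at least 1 among the 25 of the transcription factor list below. Zfp36, which destabilises mRNAs with AU-rich elements, was at 36.4, 5.21 and 7.03 FPKM, the only 1 of 8 genes for mRNA stability proteins higher by as much. In these lists 0 genes were lower by as much. Of the 11 skeletal and cardiac muscle markers, 8 were lower in library 1 than in libraries 2 and 3, among them the myogenic factor Myog at 1.48, 28.7 and 44.8 FPKM, while Des and Nkx2-5 were higher and Myod1 lay between. All 5 fibroblast markers were lower in library 1, and of the 5 smooth muscle markers 2 were lower and 2 higher. Depth, estimated from low values, was 1.01 times that of NC library 1 in si-CIRBP library 1 and 1.03 and 0.898 times in libraries 2 and 3. For si-CIRBP library 1 this estimate rests on 167 of 1211 ratios that shared 1 factor. The part of depth was not tested.

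**Figure D4:**
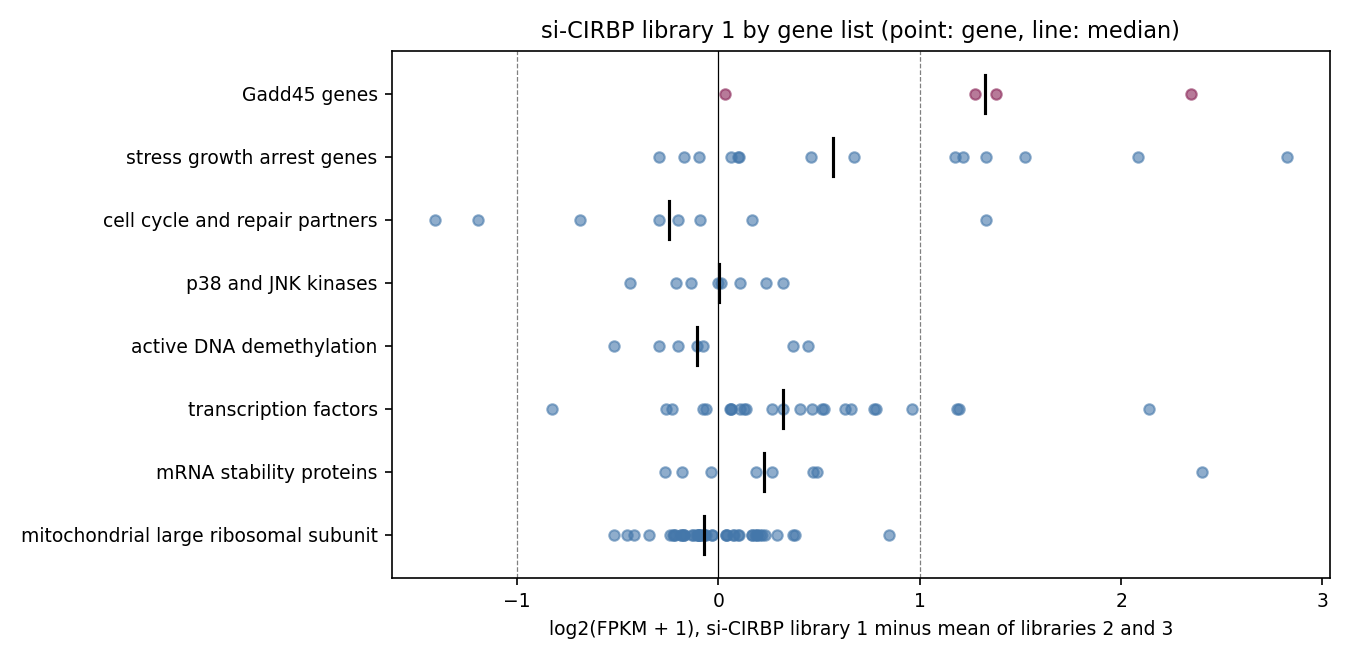
Difference of log2(FPKM + 1) between si-CIRBP library 1 and the mean of libraries 2 and 3 for each tested gene of the lists (points) with the median of each list (line) and dashed lines at -1 and 1. The Gadd45 homologues and 6 of 14 stress growth arrest genes lie beyond 1, and no p38, JNK, demethylation or mitochondrial ribosome gene does.

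The list of transcription factors known to act on Gadd45 genes also held the NF-kB inhibitor Nfkbia, which is included in its counts. Of its 25 genes tested, 14 fell in CIRBP against NC and 5 rose (34.2% and 19.7% of all genes tested). The median log2 fold change was -0.26 against -0.08 over all genes. After scaling to one median, which moved the median of all genes by 0.11, 11 fell and 5 rose, where 3757 of 14257 genes fell and 4088 rose. The NF-kB subunit genes named by the rule, Relb, Rela and Nfkb1, all fell. Relb went from 45.9 ± 1.14 to 3.99 ± 0.310 FPKM (log2 fold change -3.23), Rela from 64.1 ± 0.539 to 30.2 ± 0.850 FPKM (-1.06) and Nfkb1 from 65.6 ± 2.18 to 25.7 ± 0.978 FPKM (-1.32). Myc, which is known to repress Gadd45 genes, fell as well, from 31.6 ± 0.737 to 12.0 ± 0.646 FPKM. Between the si groups 12 of 25 fell and 2 rose (20.5% and 9.08% of all genes tested), with a median of -0.23 against -0.04. Without si-CIRBP library 1, 15 fell and 3 rose (23.6% and 12.1%), and with only the 6 si libraries given to limma 7 fell and 1 rose (889 and 266 of all 14257 genes). Myc fell from 26.4 ± 2.36 to 8.98 ± 1.09 FPKM, Rela from 55.8 ± 2.43 to 39.0 ± 1.47 FPKM and Nfkb2 from 105 ± 12.5 to 38.4 ± 13.1 FPKM. Egr1, an early growth response factor, rose from 6.13 ± 1.95 to 34.8 ± 7.82 FPKM (a log2 fold change of 2.34, limma adjusted p = 3.12e-05).

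Of the 14 stress and growth arrest genes, 6 fell and 3 rose in CIRBP (median -0.15), where 34.2% and 19.7% of all genes did. In si-CIRBP against si-NC 7 fell and 2 rose (median -0.13), where 20.5% and 9.08% of all genes did. After scaling to one median 5 fell and 4 rose in CIRBP (3757 and 4088 of all 14257 genes), and 5 fell and 2 rose between the si groups (1903 and 2420 genes). Ppp1r15a, also known as Gadd34, which restarts translation after stress, went from 73.3 ± 2.53 to 21.8 ± 2.25 FPKM in CIRBP (log2 fold change -1.71) and from 57.3 ± 2.68 to 23.6 ± 13.0 FPKM in si-CIRBP (-1.36). The latter did not pass with only the 6 si libraries in limma (adjusted p = 0.0549). Klf6, a zinc finger factor, fell in CIRBP (35.2 ± 1.80 to 12.6 ± 0.449 FPKM) and in si-CIRBP (28.3 ± 2.60 to 16.1 ± 0.724 FPKM). Phlda3, a p53 target that restrains Akt, also fell in CIRBP (338 ± 6.84 to 189 ± 4.38 FPKM) and in si-CIRBP (280.2 ± 11.7 to 212 ± 16.6 FPKM), and Ccng1 (cyclin G1) from 212 ± 2.97 to 145 ± 4.96 FPKM in CIRBP. With only the 6 si libraries, 2 of the 14 fell and 0 rose, where 889 and 266 of all 14257 genes did. At an unadjusted limma p under 0.05 there, 6 were lower and 1 higher, where 3922 of all genes passed in either direction.

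Of 8 cell cycle and repair partners of the Gadd45 proteins, 3 rose and 2 fell in CIRBP (19.7% and 34.2% of all genes), with a median log2 fold change of 0.35. Cdk1 rose from 62.9 ± 0.813 to 133 ± 1.90 FPKM and Pcna from 142 ± 2.41 to 198 ± 10.4 FPKM, while the repair nuclease gene Ercc5 fell from 5.29 ± 0.232 to 3.79 ± 0.123 FPKM. In si-CIRBP Pcna was the 1 partner called (9.08% of all genes rose and 20.5% fell), at 183 ± 31.3 and 235 ± 11.1 FPKM, a rise lost without si-CIRBP library 2 (limma adjusted p = 0.0642), with only the 6 si libraries (0.138) and with a variance factor per group (0.0743). Without si-CIRBP library 1, 5 of the 8 rose and 1 fell, against 12.1% and 23.6% of all genes. Of 8 tested p38 and JNK pathway kinases, 2 rose and 2 fell in CIRBP (median 0.02), near the 19.7% and 34.2% of all genes. After scaling to one median 4 rose and 2 fell, where 4088 and 3757 of 14257 genes did. In si-CIRBP against si-NC 2 rose and 1 fell (median 0.04), against 9.08% and 20.5% of all genes. Map3k4, the MTK1 kinase that the Gadd45 proteins activate, fell from 29.7 ± 0.397 to 16.8 ± 0.218 FPKM in CIRBP (log2 fold change -0.79). It was also lower in si-CIRBP, at 19.5 ± 0.888 against 24.1 ± 3.56 FPKM (-0.29), a call lost after scaling to one median (adjusted p = 0.116 with limma) and without si-CIRBP library 2 (0.0699) or 3 (0.0688) or si-NC library 3 (0.0519), with only the 6 si libraries (0.170) and with a variance factor per group (0.0696). Mapk14, the main p38 kinase, rose from 26.7 ± 1.43 to 32.3 ± 0.115 FPKM between the si groups, which did not pass with only the 6 si libraries (limma adjusted p = 0.0684).

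The next list shares Ing1 and Ercc5 with the cell cycle and repair partners. Those partners share Cdkn1a with the stress and growth arrest genes. Of 7 active DNA demethylation genes tested, 2 rose and 3 fell in CIRBP (median -0.01), near the 19.7% and 34.2% of all genes. After scaling to one median 3 rose and 2 fell, where 4088 and 3757 of 14257 genes did. In this list limma called 0 between the si groups, where it called 29.6% of all genes in either direction. At an unadjusted p under 0.05 there, 1 was higher, where 5770 of 14257 genes passed in either direction. Without si-CIRBP library 1, 1 was called higher, against 12.1% of all genes. The glycosylase gene Tdg fell from 15.6 ± 0.295 to 9.47 ± 0.0950 FPKM and the Gadd45a partner Ing1 rose from 14.8 ± 0.532 to 22.4 ± 0.299 FPKM in CIRBP. Among 8 genes for mRNA stability proteins, 1 rose and 3 fell in CIRBP (median -0.22), near the shares of all genes (19.7% and 34.2%). After scaling to one median 1 rose and 1 fell, where 4088 and 3757 of 14257 genes did. In si-CIRBP 1 fell and 0 rose (median -0.07), against 20.5% and 9.08% of all genes, and at an unadjusted limma p under 0.05 these counts were 1 and 0 as well. Zfp36l2, a relative of Zfp36, fell in CIRBP (5.23 ± 0.506 to 2.91 ± 0.252 FPKM) and in si-CIRBP (5.45 ± 0.210 to 3.54 ± 0.530 FPKM). Its call between the si groups was lost with only those libraries in limma (adjusted p = 0.0554) and with a variance factor per group (0.0653). Around Gadd45gip1, 20 of 47 genes in the list for the large mitochondrial ribosomal subunit fell in CIRBP and 6 rose (median -0.18), where 34.2% and 19.7% of all genes did. That list also held Oxa1l, not itself a gene of the subunit, which is included in its counts. After scaling to one median 11 fell and 7 rose, where 3757 and 4088 of 14257 genes did. Between the si groups 13 fell and 3 rose (median -0.04), where 20.5% and 9.08% of all genes did. After that scaling 7 fell and 10 rose (1903 and 2420 genes), so the direction of this list depended on the scaling. With only the 6 si libraries in limma 2 fell and 0 rose, where 889 and 266 of 14257 genes did. At an unadjusted p under 0.05 there, 10 were lower and 2 higher, where 3922 of all genes passed in either direction. Mrpl38 and Mrps18a were lower in both comparisons, Mrpl38 at 32.7 ± 1.33 against 57.3 ± 1.73 FPKM and at 34.3 ± 3.01 against 48.8 ± 4.41 FPKM.

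Among 10983 candidate genes, those whose profile over the 12 libraries was most like that of a Gadd45 gene were found by the root mean square difference of the centred log2 values, which share library and scaling between genes. These profiles include the fall from NC to CIRBP by which Gadd45b and Gadd45g were chosen, so genes that share that fall lie near them. The nearest genes are therefore given as a description. For Gadd45b, whose own profile had a root mean square of 1.89, the nearest was Tnfaip3, which encodes the ubiquitin editor A20, at 0.46. It was at 42.0 ± 1.17, 2.14 ± 0.363, 26.2 ± 3.63 and 11.9 ± 10.9 FPKM in the groups NC and CIRBP and then si-NC and si-CIRBP. Usp18 (0.70), Relb (0.71) and Rsad2 (0.73) followed. Gadd45g itself was at 0.85 from Gadd45b and Gadd45a at 1.64. For Gadd45g (1.16) the nearest were the adhesion molecule gene Icam1 (0.27), Relb (0.35), the exonuclease gene Isg20 (0.37) and Nfkb2 (0.39). Icam1 was at 79.0 ± 0.671, 13.8 ± 0.0516, 59.9 ± 8.01 and 34.6 ± 18.5 FPKM in the same order of groups. For Gadd45a (0.51) they were the Notch target Hes1 (0.19), N4bp2l1 (0.21) and Vps37d (0.21). Hes1 was at 37.6 ± 0.884, 30.0 ± 0.211, 31.6 ± 3.02 and 25.3 ± 17.5 FPKM. Gadd45gip1 hardly varied (0.11), and many genes with flat profiles would lie close to it. Its nearest were Ttc13 (0.04), Nsfl1c (0.05), Sgta (0.05) and Snapc3 (0.05).

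**Figure D5:**
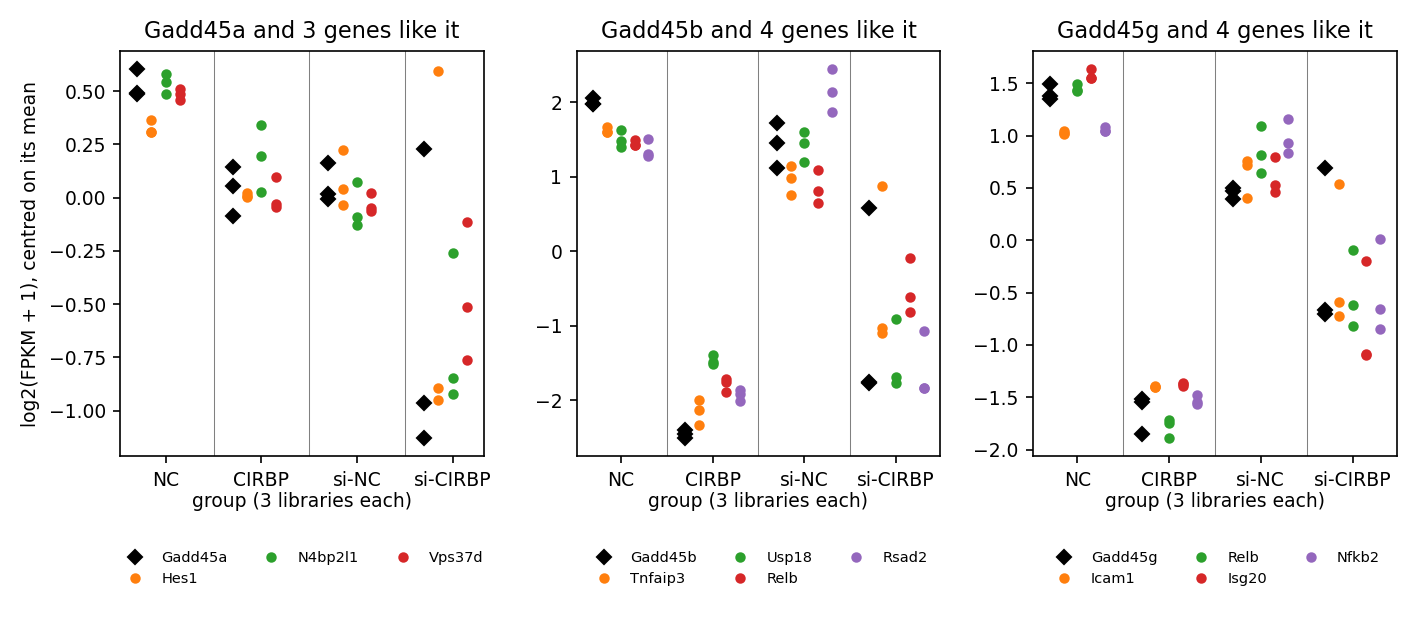
Centred log2(FPKM + 1) of Gadd45a, Gadd45b and Gadd45g (black diamonds) and genes with a like profile (coloured points, 3 for Gadd45a and 4 for each of the others) in the 3 libraries of every group. For Gadd45b and Gadd45g and the genes beside them, NC and si-NC lie above CIRBP, and for Gadd45a itself the lowest points are those of si-CIRBP libraries 2 and 3.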

How the data were processed

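Paired-end sequencing of poly-A RNA covered 12 libraries, 3 in each of 4 groups. The authors deposited FPKM, per the file headers, for every gene and library (fragments scaled by transcript length and mapped depth). Per the submitters' processing notes, Bowtie2 2.3.3.1 and Cufflinks 2.2.1 are named, with no role given, and GRCm38 and mm10, both of mouse, are listed. The identifiers are rat Ensembl ones, so no coordinate of the files is printed. The sources used here give neither the strand setting nor how shared reads were handled. Absolute depth is unknown. Low values (under 0.3 FPKM) differed between libraries by a modal factor (window 0.3%), which gave depths of 0.842 to 1.03 times that of NC library 1.

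The test was limma 3.58.1 in R 4.3.3, with eBayes and its trend option, on log2(FPKM + 1) in 14257 of 18344 genes, each reaching 1 FPKM in no fewer than 3 libraries. All 12 libraries entered 1 fit, with 8 residual and 2.53 prior degrees of freedom. P-values were two-sided, adjusted by Benjamini and Hochberg over all genes tested, and called under 0.05. The fit was tested on simulated data with noise independent between genes and libraries and far fewer changed genes than were called here. That simulation therefore does not cover a shift shared by many genes of 1 library. The members, the gene lists and the tests were chosen with earlier results of these data known. Members were tested only in si-CIRBP against si-NC. Named from each list were up to 4 called members with the smallest adjusted p in each comparison, and for each Gadd45 gene the 4 genes with the most similar profile, of which 1 for Gadd45a is not reported here. Genes of the lists named for si-CIRBP library 1, and single marker genes, were chosen after their values were seen. Alternatives were another pseudocount, no filter, 2 scalings, a fit of the 6 libraries of a pair, the replicate number as a block, 2 variance models and each library left out. The fit without si-CIRBP library 1 was singled out for reporting after the values of that library were seen. Promoter sequences came from a RefSeq table on GRCr8.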

Additional observations from a re-analysis of the deposited data

How the results depend on the processing

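For CIRBP against NC, where the Gadd45 genes have no test, Gadd45a went from -0.49 to -0.34 and Gadd45b from -4.46 to -4.31 after scaling to one median, against -0.36 and -4.34 by median ratios. Gadd45g went from -3.05 to -2.90 after scaling to one median. A pseudocount of 0.1 gave -4.54 for Gadd45b. Gadd45gip1 reversed from -0.13 to 0.0176 after scaling to one median and came to -0.00595 by median ratios, and Mapk14 turned to 0.13 there after scaling to one median. Between the si groups Gadd45b lost its call only when limma had just those 6 libraries (-2.41, adjusted p = 0.0671), its adjusted p ranging from 1.56e-07 to 0.0671 over 21 alternatives. Leaving out 1 library at a time gave -3.19 to -2.02 for Gadd45b, -1.10 to -0.43 for Gadd45a, -1.14 to -0.44 for Gadd45g and -0.21 to -0.11 for Gadd45gip1. Without library 1 of both si groups, a choice made after seeing the data, Gadd45a (-1.14), Gadd45g (-1.17) and Gadd45gip1 (-0.23) were called. The genes called between the si groups went from 4218 to 2019 with a variance factor per group and to 1155 with just those 6 libraries. The split of all calls turned from 2814 higher and 4881 lower to 4088 and 3757 in CIRBP against NC after scaling to one median, and from 1294 and 2924 to 2420 and 1903 between the si groups. Of 588 recomputed list counts, 514 stayed within 1.5 times. Of 43 calls of named list genes in both comparisons together, 9 were lost in a fit of the 6 libraries of the pair. With a variance factor per group 4 were lost. All calls lost in these settings were of si-CIRBP against si-NC, and the cause was not tested.

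Deviations of libraries with the same replicate number correlated only weakly, at 0.0965, 0.0482 and 0.0995 for NC and CIRBP. In the si groups the values were 0.0142, -0.0898 and 0.0405. All 6 NC and CIRBP libraries correlated best with their own number, against 2 of 6 in the si groups. The main fit did not pair the samples. With the replicate number as a block 7512 and 3926 genes were called in the 2 comparisons, and Gadd45b stayed called between the si groups (-2.41, adjusted p = 0.00558 with limma). Gadd45a, Gadd45g and Gadd45gip1 stayed uncalled under it. Absolute depth is unknown, so counting error is not part of these values.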
